A study of Mus musculus with 29 samples.

Results

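The proteasome subunit genes were followed across 29 libraries of ribosome-bound RNA from mouse cortex. Members were taken by name: every gene symbol of the count table that begins with Psma, Psmb, Psmc or Psmd and a digit, without Psmb8 and Psmb9 and without Psmb10, which was not analysed here. This gave 39 of 22327 genes. Of these, 31 are named subunits of the 26S proteasome, from the alpha ring (Psma1 to Psma7), the beta ring (Psmb1 to Psmb7) and the regulatory particle. From that particle they hold the ATPases (Psmc1 to Psmc6) and 11 non-ATPase subunits, without Shfm1 and Adrm1, whose names the rule does not match. The other 8 are 3 chaperones of regulatory particle assembly (Psmd5, Psmd9 and Psmd10), the testis subunit Psma8, the thymus subunit Psmb11, Psmc3ip, which is a recombination factor and no subunit, and the pseudogenes Psmb6-ps and Psmb6-ps2.

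The proteasome is the cell's main protease for proteins tagged with ubiquitin. Its barrel, the 20S core, is built from alpha rings that form the gate and beta rings that carry the catalytic sites, and its cap, the 19S particle, recognises the tag, removes it and unfolds the substrate with a ring of ATPases. Immune cells such as microglia can exchange the catalytic subunits for the immunoproteasome forms, and cells short of proteasome activity can raise all subunit genes together through the factor Nfe2l1.

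Each library came from the cortex of mice aged 6 months that all carried Cx3cr1CreErt2/+, a tamoxifen-activated recombinase driven by the promoter of the microglial and macrophage receptor Cx3cr1, and all received 6 doses of 100 mg/kg tamoxifen. Ribosomes tagged with eGFP-L10a were pulled down with an antibody to GFP (translating ribosome affinity purification, TRAP). Control mice (TRAP, n = 5) carried Eef1a1LSL.eGFPL10a/+ and were given neither VEGF nor ASV. The 5xFAD TRAP mice (n = 4) added 5xFAD, an amyloid transgene, and received VEGF at 1 µg/kg with ASV, an inhibitor of the NS3 protease, at 5 mg/kg over 4 weeks. Eif2A mice (n = 4) and 5xFAD Eif2A mice (n = 3) carried Eif2s1A/A;Tg(flEifs1), in which Eif2s1A/A encodes eIF2alpha that cannot be phosphorylated, and were given neither compound. The labels and the series text differ on whether Eif2A mice carry the tag. The last 3 groups carried Eef1a1LSL.NS3.eGFP-L10a.iPKR/+, a tag joined to an inducible form of the eIF2alpha kinase PKR. They were iPKR vehicle (VEGF and vehicle, n = 4), iPKR ASV (VEGF and ASV, n = 5) and 5xFAD iPKR (5xFAD with VEGF and ASV, n = 4). The 5xFAD TRAP and TRAP groups thus also differed in VEGF and ASV, and the iPKR vehicle and TRAP groups in VEGF and vehicle, and these cannot be told apart from the genotype. Eif2A and 5xFAD Eif2A libraries were all of batch 1, and the other groups held both batches. By labelled sex, males and females numbered 3 and 2 in TRAP and 3 and 1 in 5xFAD TRAP. They numbered 2 and 2 in Eif2A and 2 and 1 in 5xFAD Eif2A. With the iPKR construct they numbered 3 and 1 under vehicle, 3 and 2 under ASV and 1 and 3 in 5xFAD iPKR.

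Library totals ran from 1.66 to 31.998 M counts (median 6.05 M). The 12 homeostatic microglia markers in the table summed to 1.38 to 1.99% of counts in the 16 libraries without the iPKR construct and to 0.0522 to 0.670% in the 13 with it. The 11 neuron markers summed to 0.0587 to 0.422% without and to 0.504 to 3.65% with the construct. No marker of either list was at 0 in every library. In such bulk RNA, fewer cells of a type and less RNA per cell cannot be told apart, and every comparison of iPKR with tag-only groups below carries this difference in markers.

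Promoters of members that the results turn on are printed here, so that the gene that was called in 5xFAD mice (Psmd11), a core and a cap subunit that fell in iPKR mice (Psmb6 and Psmd8) and the ATPase that rose there (Psmc1) can be compared. The sequences are RefSeq windows on GRCm38.p6 that start 250 bases before the gene start, end before the first annotated exon and are written 5′ to 3′ on the gene's strand. Psmd11 is shown from chr11:80428365-80428614 on the plus strand, Psmb6 from chr11:70525107-70525356 on the plus strand, Psmc1 from chr12:100109952-100110153 on the plus strand and Psmd8 from chr7:29180702-29180923 on the minus strand. Capitals mark the ETS core CCGGAAG (or its reverse complement) and the antioxidant response element core TGACNNNGC, which Nfe2l1 and Nfe2l2 bind.
Psmd11: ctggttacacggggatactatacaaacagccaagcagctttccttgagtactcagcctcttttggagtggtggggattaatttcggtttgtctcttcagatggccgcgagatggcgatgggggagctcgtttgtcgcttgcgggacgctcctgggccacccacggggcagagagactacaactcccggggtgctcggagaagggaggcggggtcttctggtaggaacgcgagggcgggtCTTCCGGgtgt
Psmb6: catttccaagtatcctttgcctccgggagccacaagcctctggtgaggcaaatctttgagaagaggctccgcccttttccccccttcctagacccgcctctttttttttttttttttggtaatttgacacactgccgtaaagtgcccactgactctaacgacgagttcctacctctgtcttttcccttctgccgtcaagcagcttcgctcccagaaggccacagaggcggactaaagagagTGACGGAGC
Psmc1: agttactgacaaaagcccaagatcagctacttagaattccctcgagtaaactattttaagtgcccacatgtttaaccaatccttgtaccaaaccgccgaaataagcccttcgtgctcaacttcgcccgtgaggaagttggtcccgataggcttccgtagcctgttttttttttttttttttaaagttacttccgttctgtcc
Psmd8: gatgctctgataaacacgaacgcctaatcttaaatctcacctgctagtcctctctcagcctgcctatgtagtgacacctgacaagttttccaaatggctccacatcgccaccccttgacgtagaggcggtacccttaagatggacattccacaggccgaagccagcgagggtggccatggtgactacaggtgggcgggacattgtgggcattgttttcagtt
The stretches of Psmc1 and Psmd8 printed here hold neither pattern. A RefSeq promoter was found for 30 of the 39 members, in 32 windows. Both strands of the 250 bases before the start were searched, each pattern on its own, so that overlapping matches of different patterns were all counted. CCGGAAG lay in 11 windows of members (34.4%) against 6.91% of all 32851 windows and 10.1% of those of genes in the count table, and the match of Psmc1 lies past the part printed above. TGACNNNGC lay in 5 windows of members (15.6%) against 10.2% of all windows and 11.3% of those of genes in the table. The NF-Y box CCAAT lay in 13 (40.6% against 33.8%), the core of the ATF4 composite element TGATGNAA in 1 (3.12% against 3.45%) and the E-box CACGTG in 2 (6.25% against 6.02%). Of windows of genes in the table, 34.3%, 2.41% and 7.4% held these 3 patterns. A match describes letters in a window and is no evidence of binding.

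In TRAP mice the subunit genes were all read, at levels that differed 27.2-fold from the highest to the lowest of the 31. Levels between genes are compared as CPM, counts scaled to library size with TMM factors, and divided by the exon length in kb. This length is the union of all annotated exons of a gene and can exceed any single transcript. It is 6383 bases for Psmd11 and 7265 for Psmd1, whose longest transcripts have 2975 and 3112 bases. The order and the range of levels hold for this length only. Psmb2, a structural beta subunit, was highest at 270 ± 13.9 CPM per kb (SD, n = 5). The ATPase Psmc5 followed at 193 ± 14.7 CPM per kb, then the alpha subunit Psma6 at 187 ± 12.2 CPM per kb. The lowest was Psmd11, the cap subunit that clamps the lid to the core, at 9.93 ± 0.457 CPM per kb. It was preceded by Psmb7, the trypsin-like catalytic subunit, at 19.7 ± 1.99 CPM per kb and by the scaffold subunit Psmd1 at 21.2 ± 2.43 CPM per kb. The catalytic subunits were therefore spread over most of the order, since Psmb6, the caspase-like one, stood at 160 ± 15.8 CPM per kb and Psmb5, the chymotrypsin-like one, at 89.5 ± 12.5 CPM per kb. The levels of Psmb5 and Psma5 are uncertain, since 57.1% and 55.4% of the 50-base stretches in their longest transcripts also occur in other genes.

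The median level was 82.8 CPM per kb for the alpha ring, 84.9 for the beta ring, 83.2 for the ATPases and 49.3 for the non-ATPases. Ranges over the 5 libraries overlapped in 26 of the 30 pairs of neighbours in the order, so most neighbours did not differ beyond their spread. Within TRAP the coefficient of variation over libraries had a median of 8.97% and ran from 2.15% for Psmc1 to 18.1% for Psmd2. The assembly chaperones lay at 54.8 CPM per kb for Psmd10, 11.6 for Psmd5 and 8.23 for Psmd9.

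**Figure D1:**
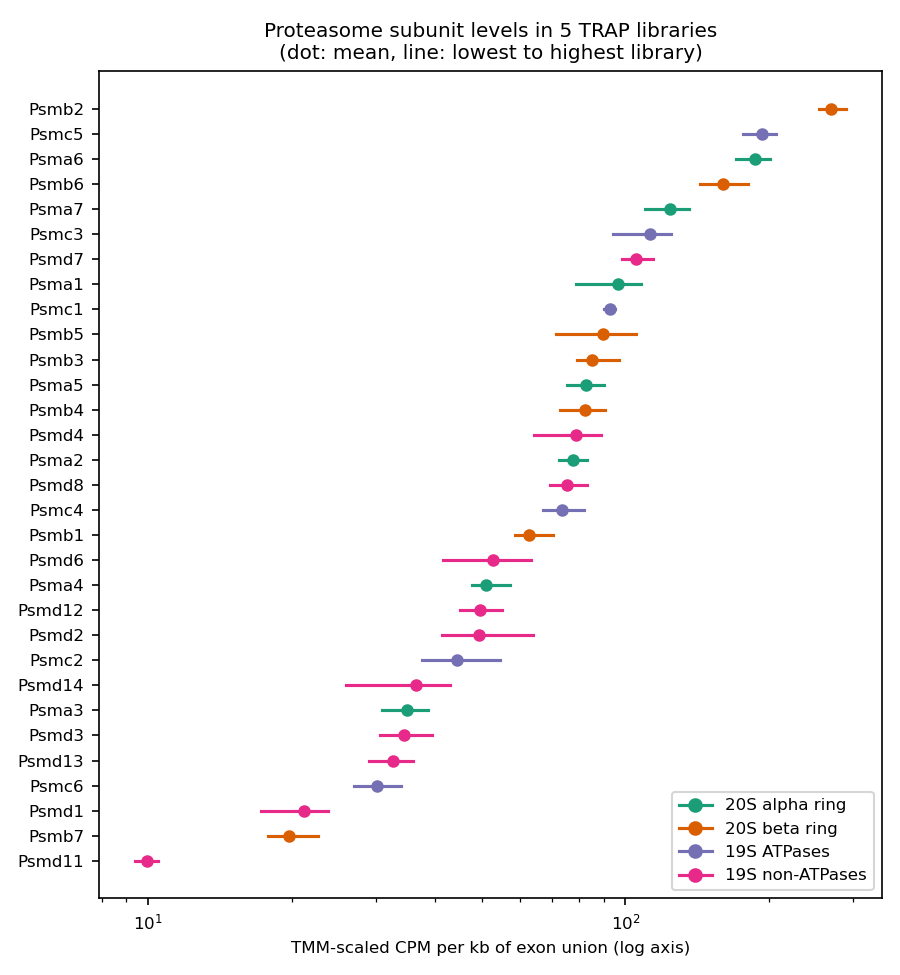
Level of each of the 31 subunit genes in the 5 TRAP libraries, in TMM-scaled CPM per kb of exon union on a log axis. Dots are means and lines run from the lowest to the highest library, with genes ordered by mean and coloured by ring or cap class. Psmb2 stands at the top with a mean of 270 and Psmd11 at the bottom with 9.93.

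Among the 4 groups without the iPKR construct the subunit genes kept close levels. The highest group mean was at most 1.74 times the lowest, which was reached by Psmd11, and the ratio was under 1.5 for 29 of the 31 genes, with a median of 1.25. Over all 7 groups the same ratio ran from 1.34 to 3.81 with a median of 2.37. The highest mean lay in 5xFAD Eif2A for 21 of the 31 genes and the lowest in iPKR vehicle for 23. This order rests on the scaling, since with library totals, tried after seeing the data, the highest mean lay in Eif2A for 11 genes, in 5xFAD iPKR for 9 and in 5xFAD Eif2A for 6, and the lowest in iPKR vehicle for 18.

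The 5xFAD transgene was compared with its control in 3 settings, and 1 member was called changed in them, Psmd11 in mice with the Eif2A allele. Calls here and below use edgeR's quasi-likelihood test with Benjamini-Hochberg adjustment over 16074 genes at 0.05, a set that held 37 of the 39 members. In CPM, Psmd11 (chr11:80428615-80473248, plus strand, protein coding) read 117, 107 and 107 in the 5xFAD Eif2A libraries and 69.0, 64.5, 54.3 and 73.7 in the Eif2A libraries. All 3 libraries of the first group lay above all 4 of the second. The log2 difference was 0.79 ± 0.18 (SE), a 1.73-fold rise with a 95% interval of 0.42 to 1.16 on the log2 scale (edgeR adjusted p = 0.0121). Of all genes tested, 3.1% were called in this comparison and 2.08% were called higher. The Psmd11 call was kept in 3 of the 7 fits that left out a library, and the adjusted p rose to between 0.0520 and 0.0616 without Eif2A replicate 3 or without any 1 of the 5xFAD Eif2A libraries. The log2 difference was 0.72 to 0.82 over these fits. The call was also lost with no low-count filter (adjusted p = 0.0619), without batch in the fit (0.0555) and with library totals in place of TMM factors (0.0586). Summed homeostatic microglia markers were higher in every 5xFAD Eif2A library (1.755 to 1.836%) than in every Eif2A library (1.38 to 1.742%), and astrocyte markers lower (0.0316 to 0.040% against 0.0430 to 0.0707%). Neuron markers took 0.0587 to 0.0870% and 0.0879 to 0.111%, and the part of these markers in the result was not tested.

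Psmd11 read 83.4, 97.0, 78.2 and 70.3 CPM in 5xFAD TRAP and 62.2, 65.7, 67.0, 62.2 and 59.8 CPM in TRAP. Again no library of the 5xFAD group lay within the range of the other group. The log2 difference of 0.50 ± 0.17 did not pass over all genes (edgeR adjusted p = 0.219), while a fit of the 4 groups without iPKR gave 0.46 with an adjusted p of 0.0166. Psmd11 was the only member whose libraries did not overlap here with 5xFAD TRAP higher, against 3.4% of all genes. In the iPKR setting it read 64.4, 67.5, 56.0 and 39.6 CPM with 5xFAD and 49.1, 61.1, 66.9, 43.3 and 41.1 CPM in iPKR ASV. These ranges overlapped and the log2 difference was 0.09 ± 0.16 (edgeR adjusted p = 0.863). The difference between the 5xFAD effects was tested directly, and for Psmd11 it was 0.29 ± 0.24 for Eif2A minus TRAP (edgeR adjusted p = 1.00) and -0.40 ± 0.24 for iPKR minus TRAP (adjusted p = 0.825). Giving Psmd11 outside the comparison that called it was decided after its values were seen.

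For 5xFAD against control in mice with the plain tag, 0 of 37 members were called by edgeR and 0 by DESeq2, with 2 at an unadjusted p under 0.05 and 0.79% of all genes called. The median log2 difference of the members was 0.20 against -0.06 over all genes, and 33 of 37 were positive against 45% of all genes. Psmd14, which removes ubiquitin from substrates, was the other member under 0.05, at 0.56 ± 0.25 on the log2 scale (edgeR adjusted p = 0.420). Neuron markers summed to 0.101 to 0.422% of counts in 5xFAD TRAP and 0.107 to 0.130% in TRAP, and their part in these values was not tested.

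In the Eif2A setting 3 members had an unadjusted p under 0.05, the median was 0.15 against -0.06 over all genes, and 29 of 37 were positive against 45% of genes. Psmb6 read 576, 468 and 451 CPM in 5xFAD Eif2A and 411, 367, 322 and 413 CPM in Eif2A. The groups did not overlap, and the log2 difference was 0.43 ± 0.20 (edgeR adjusted p = 0.295). Psmd12, a lid subunit, differed by 0.60 ± 0.28 (edgeR adjusted p = 0.298). In all, 6 members had non-overlapping libraries with 5xFAD higher, against 11.5% of genes, and 2 (Psma3 and Psmd10) with 5xFAD lower, against 9.64%.

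Within iPKR mice given ASV, 0 of 37 members were called by edgeR and 0 by DESeq2 between 5xFAD iPKR and iPKR ASV, where 1.72% of all genes were called. The median was 0.31 against 0.00 over all genes, 35 of 37 members were positive against 50.4% of genes, and 6 had an unadjusted p under 0.05. Libraries did not overlap for Psmb2 and Psmb3, higher with 5xFAD, against 1.54% of genes. The 12 homeostatic microglia markers were also all positive here, with a median of 1.19 and 3 called higher. Without the 3 libraries of highest neuron marker share (iPKR ASV replicate 3 and 5xFAD iPKR replicates 1 and 2) the members' median was 0.06. All 3 were of batch 1, and without them 5xFAD iPKR held batch 2 alone, so neuron marker share cannot be told apart from batch. The median was 0.10 without 5xFAD iPKR replicate 2 alone, 0.49 in batch 1 and 0.09 in batch 2.

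The catalytic subunits showed no called change with 5xFAD in any of the 3 settings. Psmb5 read 57.1, 80.5, 66.8 and 79.2 CPM in 5xFAD TRAP and 64.2, 76.7, 85.0, 81.6 and 94.8 CPM in TRAP, with a 95% interval of -0.68 to 0.31 for the log2 difference. Psmb6 read 337, 327, 408 and 364 CPM against 272, 268, 317, 302 and 338 CPM, with an interval of -0.14 to 0.61. Psmb7 read 81.1, 73.4, 78.7 and 63.1 CPM against 67.7, 60.9, 77.5, 70.0 and 61.5 CPM, with an interval of -0.08 to 0.77. All 3 pairs of groups overlapped. In the Eif2A setting the interval was -0.30 to 0.77 for Psmb5 and -0.49 to 0.44 for Psmb7, and in the iPKR setting it was -0.18 to 0.78 for Psmb5, 0.03 to 0.76 for Psmb6 and -0.10 to 0.72 for Psmb7. Over the 31 subunits the 95% interval lay inside a 2-fold change either way for 29 in each of the 3 comparisons of 5xFAD with its control.

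**Figure D2:**
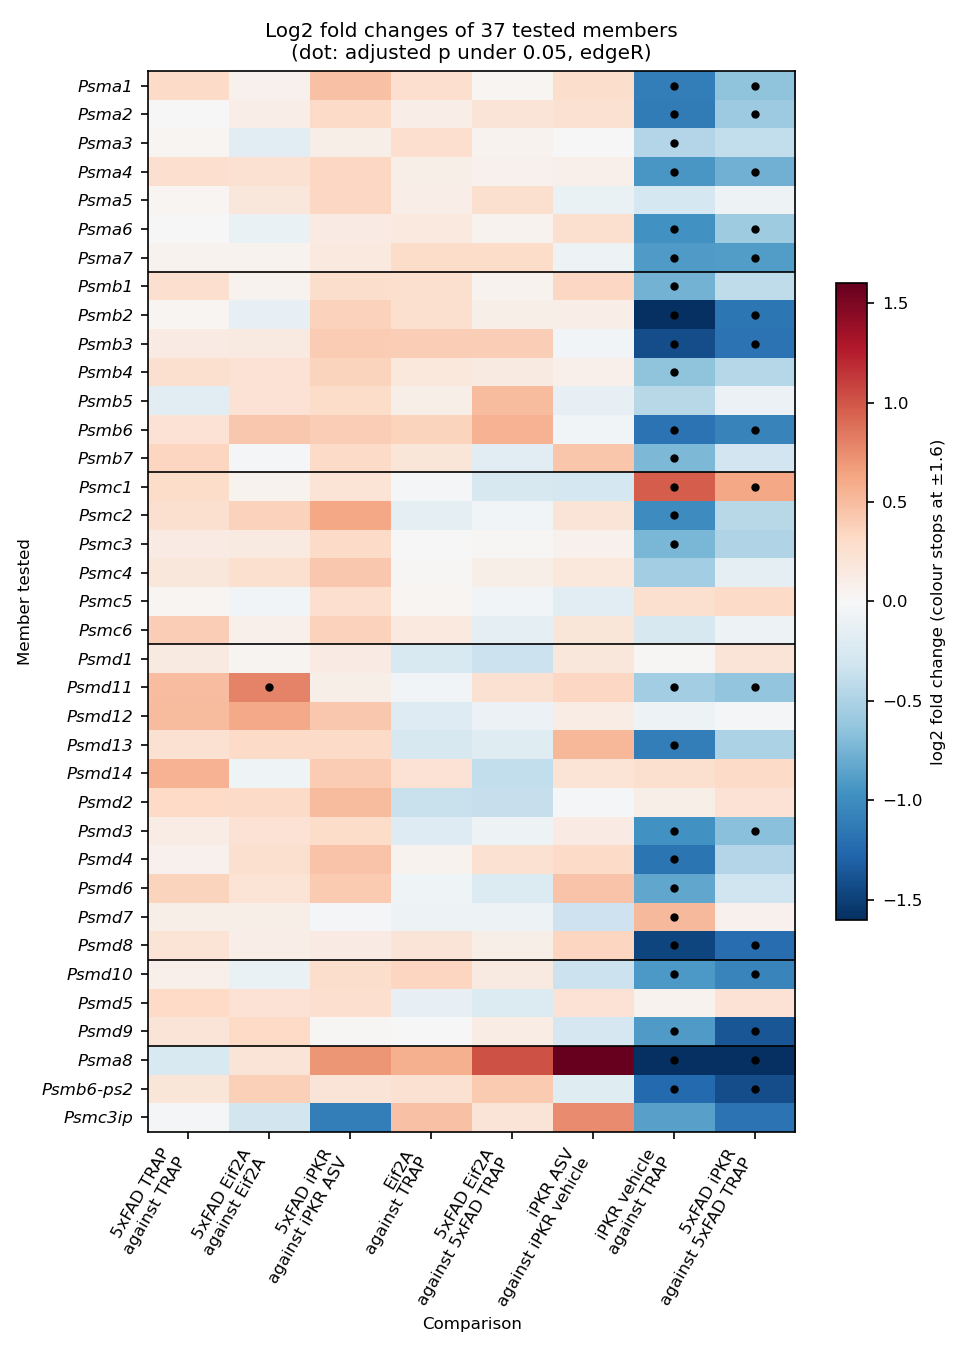
Heat map of log2 differences of the 37 tested members (rows, by class) in the 8 pairwise comparisons (columns), with a dot where the edgeR adjusted p is under 0.05. Dots fill the iPKR columns against tag-only mice, 26 and 16 members, and elsewhere mark Psmd11 in 5xFAD Eif2A against Eif2A.

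The Eif2A allele was compared with the plain tag without and with 5xFAD, and no member was called. Between Eif2A and TRAP, 0 of 37 members were called by edgeR and 0 by DESeq2, with 1 at an unadjusted p under 0.05 and 0% of all genes called. The median was 0.10 against 0.00 over all genes, with 25 of 37 positive against 50% of genes. All 7 alpha and all 7 beta subunits had positive values, and 3 of the 11 non-ATPases did. Psmb3, a structural beta subunit, read 265, 258, 215 and 269 CPM in Eif2A and 182, 194, 192, 185 and 223 CPM in TRAP. The groups overlapped through 1 library of each, and the log2 difference was 0.39 ± 0.18 (edgeR adjusted p = 0.866). For 7 members the Eif2A libraries lay wholly above TRAP, against 2.86% of genes; they were Psma1, Psma3, Psma6, Psmc6, Psmd8, Psmd10 and Psmd14. The 95% interval lay inside a 2-fold change either way for all 31 subunits.

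Of the catalytic subunits, Psmb5 read 84.6, 83.9, 79.4 and 94.3 CPM in Eif2A, within the range of TRAP, with a log2 difference of 0.09 ± 0.23 (edgeR adjusted p = 0.995). Psmb7 read 84.6, 86.6, 74.1 and 94.7 CPM, overlapping TRAP through Eif2A replicate 3, at 0.20 ± 0.20 (edgeR adjusted p = 0.944). Psmb6 overlapped TRAP through the same library and was at 0.35 ± 0.18 (edgeR adjusted p = 0.866). None of the 3 genes passed.

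With 5xFAD on both sides, 0 of 37 members were called by edgeR and 0 by DESeq2 between 5xFAD Eif2A and 5xFAD TRAP, with 1 at an unadjusted p under 0.05 and 0.168% of all genes called. The median was 0.06 against 0.03 over all genes, with 23 of 37 positive against 51.8% of genes. Psmb6 read 576, 468 and 451 CPM against 337, 327, 408 and 364 CPM. The groups did not overlap, and the log2 difference was 0.55 ± 0.21 (edgeR adjusted p = 0.320). The CPM of 13 members lay wholly above those of 5xFAD TRAP, against 7.97% of genes, but CPM are not adjusted for batch, and VEGF and ASV had been given to one side only. All 7 alpha subunits and 6 of 7 beta subunits were positive in the adjusted fit, as were 2 of 6 ATPases and 3 of 11 non-ATPases. Psmb5 read 111, 94.5 and 93.1 CPM in 5xFAD Eif2A, above all 5xFAD TRAP libraries, at 0.51 ± 0.28 (edgeR adjusted p = 0.529). Psmb7 read 74.9, 83.8 and 80.5 CPM, overlapping 5xFAD TRAP, at -0.18 ± 0.24 (edgeR adjusted p = 0.843). Neuron markers were negative for 11 of 11 genes in this comparison, and their part in the result was not tested.

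In iPKR vehicle mice 12 of 14 core genes and 8 of 17 cap genes were lower than in TRAP mice, and 2 cap genes were higher. Of 37 members 24 fell and 2 rose, in a comparison where 54.1% of all genes were called, 25.4% lower and 28.6% higher. The members' median log2 difference was -0.83 against 0.17 over all genes. Libraries did not overlap for 27 members with iPKR vehicle lower, against 23.8% of genes, and for 1 member with it higher, against 24.8%. In the same comparison all 12 homeostatic microglia markers were called lower (median -4.20) and all 11 neuron markers were called higher (median 2.68). Astrocyte markers summed to 0.126 to 0.530% of counts with the construct and 0.0316 to 0.0707% without it. The part of these markers in the result was not tested.

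In the 20S core, 6 of 7 alpha and 6 of 7 beta subunits were called lower. Psmb2 (chr4:126677630-126709714, plus strand) read 77.8, 106, 119 and 115 CPM in iPKR vehicle and 324, 312, 349, 331 and 307 CPM in TRAP. Every iPKR vehicle library was far below every TRAP library. The log2 difference was -1.59 ± 0.17, 3.02-fold lower (edgeR adjusted p = 1.85e-08). Psmb3 read 42.96, 77.5, 100.3 and 80.0 CPM against 182, 194, 192, 185 and 223 CPM. The groups did not overlap, and the log2 difference was -1.42 ± 0.20 (edgeR adjusted p = 9.88e-07). Psma1, an alpha ring subunit, read 84.5, 139, 136 and 121 CPM against 307, 309.7, 318, 257 and 232 CPM. Its lowest TRAP library stood above its highest iPKR vehicle library, and the log2 difference was -1.10 ± 0.19 (edgeR adjusted p = 2.14e-05). The other called alpha subunits ran from -0.47 for Psma3 to -1.12 for Psma2. Psma5 did not pass at -0.28 ± 0.23 (edgeR adjusted p = 0.306).

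The catalytic subunits did not give the same values. Psmb6 (chr11:70525367-70527858, plus strand) read 78.1, 139, 168 and 159 CPM in iPKR vehicle against 272, 268, 317, 302 and 338 CPM in TRAP. The ranges were wide apart, and the log2 difference was -1.18 ± 0.19 (edgeR adjusted p = 6.91e-06). Psmb7 read 32.9, 35.3, 29.9 and 42.97 CPM against 67.7, 60.9, 77.5, 70.0 and 61.5 CPM, without overlap, at -0.72 ± 0.21 on the log2 scale (edgeR adjusted p = 0.00497). Psmb5 read 28.7, 61.0, 81.6 and 66.3 CPM against 64.2, 76.7, 85.0, 81.6 and 94.8 CPM. These libraries overlapped and the difference of -0.44 ± 0.24 did not pass (edgeR adjusted p = 0.124). Of the 50-base stretches in the longest transcript of Psmb5, 57.1% also occur in transcripts of other annotated genes. The share was 55.4% for Psma5, 31.5% for Psma4, 26.1% for Psmd2, 22% for Psma3, 17.6% for Psmc1 and 10.1% for Psmb3. The counts of these genes are uncertain if reads with several matches were dropped or split. For Psmd13 the share was 15.8%, but 15.1% is shared with Sirt3, which overlaps it on the opposite strand. Psmb7, Psma4, Psma5, Psmc3, Psmd1, Psmd3, Psmd9, Psmd13 and Psmc3ip overlap a gene on the opposite strand, from which their reads cannot be told apart if strand was not used.

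The 19S cap changed unevenly. Psmd8 (chr7:29174188-29180701, minus strand), a lid subunit, read 50.5, 93.7, 91.2 and 85.3 CPM in iPKR vehicle and 254, 221, 246, 219 and 213 CPM in TRAP. No libraries overlapped, and the log2 difference was -1.47 ± 0.19 (edgeR adjusted p = 3.51e-07). Psmd4, a ubiquitin receptor, fell by 1.17 on the log2 scale, and Psmd13 (-1.10), Psmd3 (-0.97), Psmd6 (-0.83) and Psmd11 (-0.56) fell too. Among the ATPases Psmc2 (-1.01) and Psmc3 (-0.73) fell, while Psmc4, Psmc5 and Psmc6 did not pass. Psmd1, Psmd2, Psmd12 and Psmd14 lay between -0.08 and 0.25 and did not pass either. The chaperones Psmd10 (-0.92) and Psmd9 (-0.91) fell, and Psmd5 had a value of 0.06.

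Psmc1 (chr12:100110154-100123405, plus strand), an ATPase whose tail helps to open the core's gate, went the other way. It read 253, 338, 324 and 340.4 CPM in iPKR vehicle and 174, 179, 182, 184 and 177 CPM in TRAP. All 4 libraries lay above all 5, and the log2 difference was 0.97 ± 0.19 (edgeR adjusted p = 7.1e-05). Psmd7, the partner of the deubiquitinase Psmd14, read 212, 405, 311 and 339 CPM against 247, 259, 227, 237 and 222 CPM. The groups overlapped, and its log2 difference of 0.52 ± 0.21 (edgeR adjusted p = 0.0407) stayed under the threshold in 2 of 9 fits that left out a library. The adjusted p of Psmd7 was 0.0704 with the replicate number as a block.

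Scaling mattered for the number of calls. With library totals in place of TMM factors, 4 members were higher and 17 lower, and the median of all genes moved from 0.17 to 0.50 while that of the members moved from -0.83 to -0.49. In batch 1 alone 1 member was higher and 27 lower, and in batch 2 alone, with 1 TRAP library, 0 were higher and 4 lower.

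**Figure D3:**
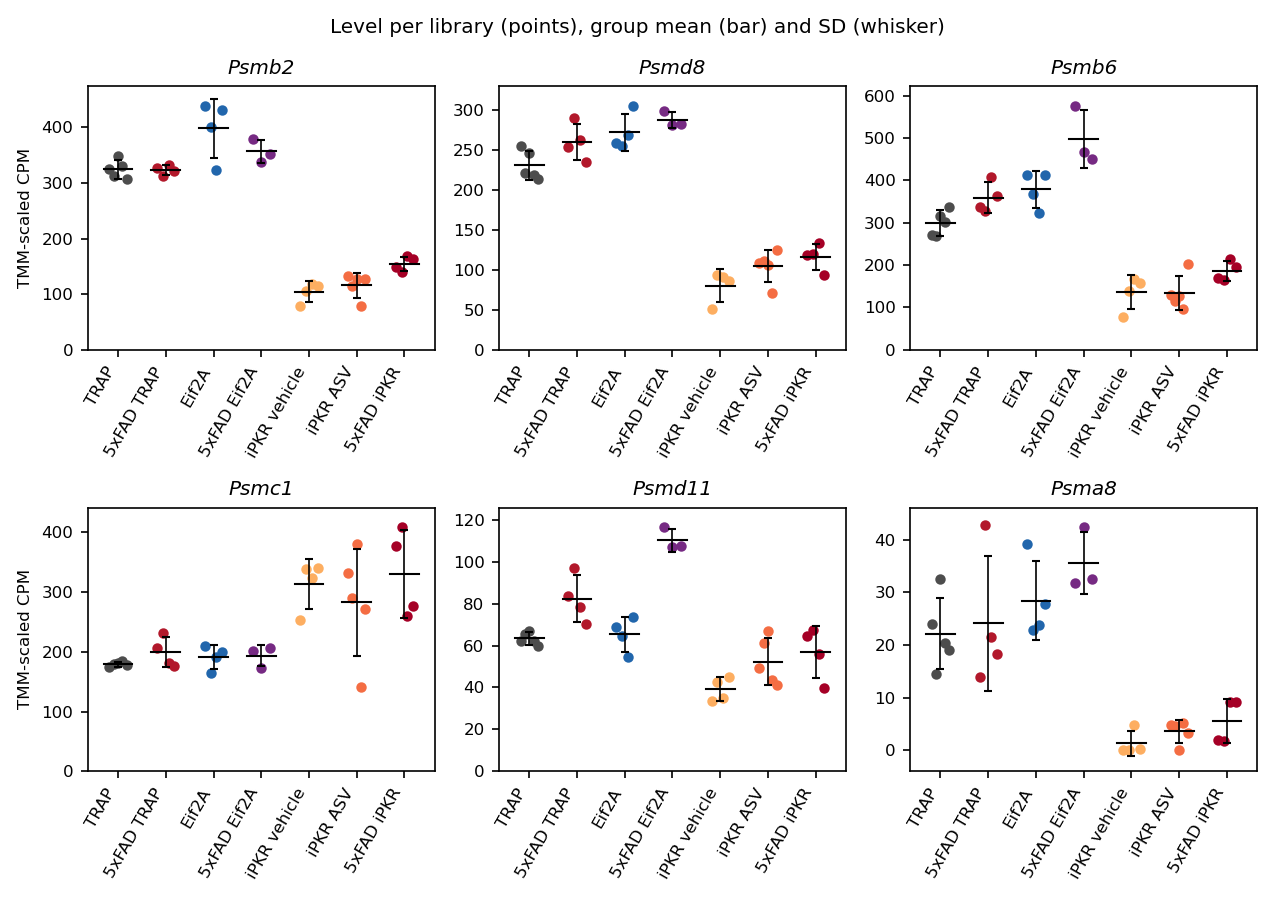
TMM-scaled CPM of Psmb2, Psmd8, Psmb6, Psmc1, Psmd11 and Psma8 in each of the 29 libraries by group, with bars at group means and linear axes. The 13 libraries with the iPKR construct lie below the other 16 for Psmb2, Psmd8, Psmb6 and Psma8, and Psmc1 is above them in all iPKR libraries except iPKR ASV replicate 4 at 142.

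The same contrast in 5xFAD mice given VEGF and ASV shared no libraries with the one above. Between 5xFAD iPKR and 5xFAD TRAP, 15 of 37 members fell and 1 rose, where 47.9% of all genes were called, 23% lower and 25% higher. The median was -0.47 against 0.21 over all genes. Libraries did not overlap for 16 members with iPKR lower, against 22.1% of genes, and for 2 with it higher, against 19.9%. CPM are not adjusted for sex, and 5xFAD iPKR held 1 male and 3 females where 5xFAD TRAP held 3 males and 1 female. All 15 members that fell here had also fallen in iPKR vehicle against TRAP, and Psmc1 was higher in both. The share of all genes that fell in both was not taken, so this overlap cannot be read as particular to the members. Both contrasts also came from the same fit. Homeostatic microglia markers were again called lower for 12 of 12 genes (median -2.76) and neuron markers higher for 11 of 11 (median 2.38), and their part was not tested.

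By role, 5 of 7 alpha subunits, 3 of 7 beta subunits, 0 of 6 ATPases and 3 of 11 non-ATPases fell. Psmb2 read 148, 139.7, 168 and 163 CPM in 5xFAD iPKR and 327, 313, 333 and 321 CPM in 5xFAD TRAP. The groups stood far apart, at -1.15 ± 0.18 on the log2 scale (edgeR adjusted p = 7.87e-06). Psmd8 read 118, 119.6, 133 and 94.0 CPM against 253, 289, 261 and 234 CPM. Without any overlap, the log2 difference was -1.22 ± 0.20 (edgeR adjusted p = 1.59e-05). Psmb3 read 91.4, 95.3, 109.8 and 105 CPM against 200.2, 178, 262 and 238 CPM, again without overlap, at -1.19 ± 0.20 (edgeR adjusted p = 3.25e-05). Psma7, the alpha subunit counted among the lower ones at -0.89 ± 0.18 (edgeR adjusted p = 0.000196), read 198, 215, 283 and 213 CPM against 398, 369, 421 and 389 CPM. The chaperone Psmd9 read 34.6, 26.6, 24.2 and 23.9 CPM against 65.7, 67.4, 68.4 and 48.8 CPM, at -1.36 ± 0.28 (edgeR adjusted p = 0.000202). Both genes had their highest iPKR library below the lowest 5xFAD TRAP library.

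Among the catalytic subunits, Psmb6 read 169, 166, 214 and 196 CPM in 5xFAD iPKR against 337, 327, 408 and 364 CPM in 5xFAD TRAP, at -1.07 ± 0.19 on the log2 scale (edgeR adjusted p = 6.68e-05). Psmb5 read 82.5, 76.9, 70.9 and 47.9 CPM against 57.1, 80.5, 66.8 and 79.2 CPM, overlapping, at -0.09 ± 0.26 (edgeR adjusted p = 0.800). Psmb7 read 87.7, 99.4, 47.8 and 42.2 CPM against 81.1, 73.4, 78.7 and 63.1 CPM. Its libraries split, with iPKR replicates 1 and 2 above and the others below 5xFAD TRAP, and the difference of -0.31 ± 0.22 did not pass (edgeR adjusted p = 0.248). Without the 3 libraries of highest neuron marker share, Psmb7 was at -0.76 (edgeR adjusted p = 0.00548). Replicates 1 and 2 were also the batch 1 libraries of 5xFAD iPKR, so neuron marker share cannot be told apart from batch here.

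Psmc1 read 377, 409, 260.4 and 276 CPM in 5xFAD iPKR and 207, 231, 181 and 177 CPM in 5xFAD TRAP. The groups did not overlap, and the log2 difference was 0.62 ± 0.20 (edgeR adjusted p = 0.0116). That call was lost without 5xFAD iPKR replicate 2 (adjusted p = 0.0661) and without the 3 libraries of highest neuron marker share (adjusted p = 0.1045). These 3 libraries were all of batch 1, and without them 5xFAD iPKR held batch 2 alone. In that fit 0 members were higher and 24 lower with a median of -0.81, and without 5xFAD iPKR replicate 2 alone 0 were higher and 21 lower. With library totals 4 were higher and 8 lower, the median of all genes moving from 0.21 to 0.56. In batch 1 alone 2 were higher and 8 lower, and in batch 2 alone 0 were higher and 13 lower.

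The balance of cap to core was then read within each library, which does not depend on the size factors. These ratios were chosen after values were seen and are given without a test. Summed CPM of the 17 cap genes over the 14 core genes was 1.01 ± 0.0664 in TRAP (SD, n = 5), 0.993 ± 0.112 in 5xFAD TRAP (n = 4), 0.881 ± 0.0144 in Eif2A (n = 4) and 0.937 ± 0.0356 in 5xFAD Eif2A (n = 3). With the construct the ratio was 1.54 ± 0.141 under vehicle (n = 4), 1.53 ± 0.382 under ASV (n = 5) and 1.501 ± 0.354 with 5xFAD and ASV (n = 4). The 16 libraries without the construct lay between 0.872 and 1.12 and the 13 with it between 1.15 and 2.12, without overlap. This sum holds only the 17 cap genes that the name rule takes and leaves out the cap subunits Shfm1 and Adrm1. In CPM, Shfm1 had 414 ± 62.4 in TRAP and 80.9 ± 12.5 in iPKR vehicle, and Adrm1 had 69.7 ± 11.1 and 42.3 ± 8.90. The separation therefore does not extend to the whole cap. The ratio of Psmc1 to Psmb2 was 0.410 to 0.738 without and 1.55 to 3.25 with the construct. All 31 subunit genes together took 0.550 ± 0.0209% of counts in TRAP and 0.452 ± 0.0936% in iPKR vehicle, but 0.557 ± 0.0381% in 5xFAD TRAP and 0.566 ± 0.109% in 5xFAD iPKR. Over all libraries this share was 0.515 to 0.602% without and 0.322 to 0.694% with the construct, so it overlapped where the ratio did not.

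**Figure D4:**
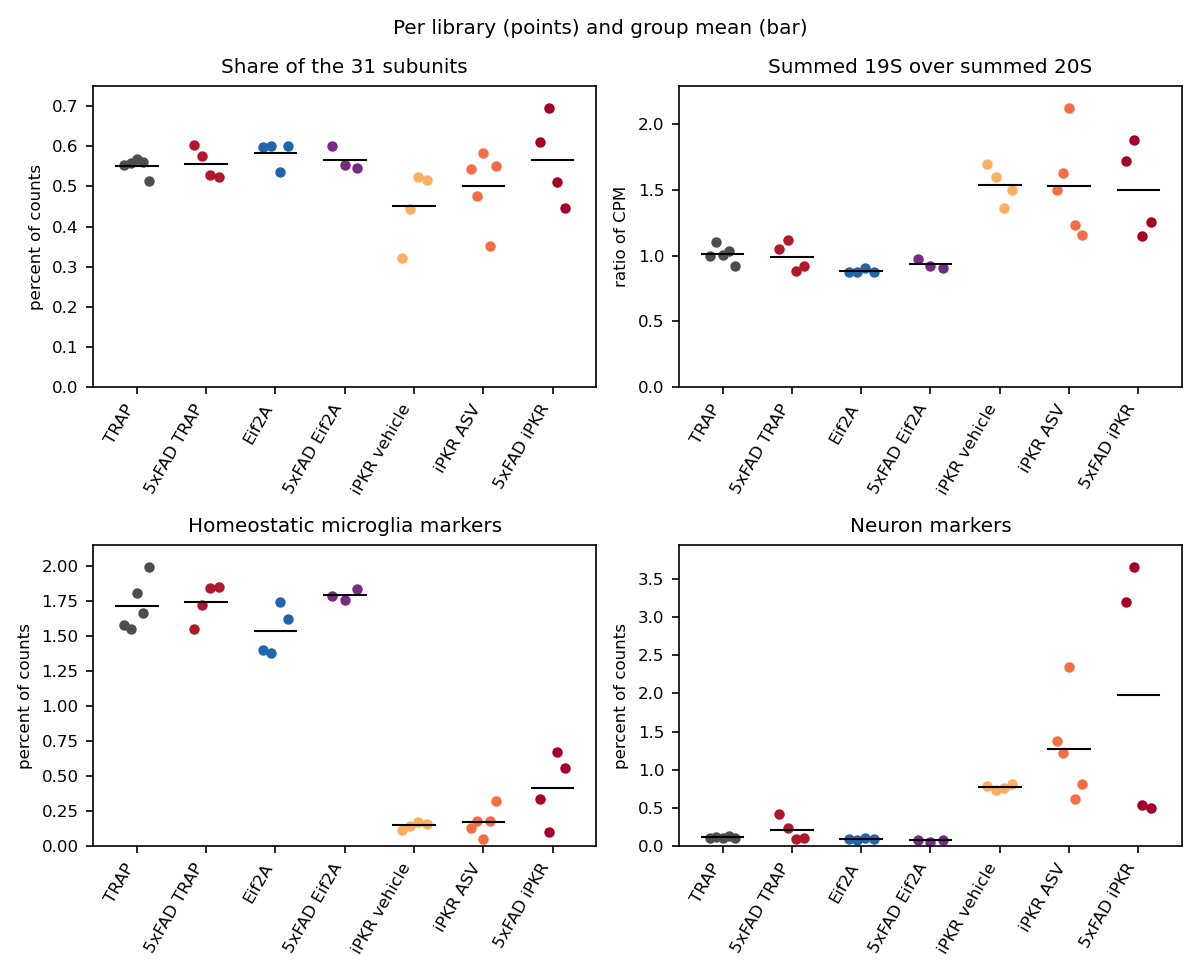
Per library and group: percent of counts in the 31 subunit genes, ratio of summed 19S to summed 20S CPM, and percent of counts in homeostatic microglia and in neuron markers, each on a linear axis from 0. The cap to core ratio, which leaves out Shfm1 and Adrm1, is at most 1.12 without the iPKR construct and at least 1.15 with it. Both marker shares also separate those libraries.

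Adding ASV to iPKR mice left no member called. Between iPKR ASV and iPKR vehicle, 0 of 37 members were called by edgeR and 0 by DESeq2, with 3 at an unadjusted p under 0.05 and 0.423% of all genes called. The median was 0.13 against 0.01 over all genes, with 25 of 37 positive against 50.6% of genes. Psmb7 read 50.8, 50.4, 87.5, 30.7 and 50.5 CPM with ASV and 32.9, 35.3, 29.9 and 42.97 CPM with vehicle. The groups overlapped through ASV replicate 4, and the log2 difference was 0.45 ± 0.20 (edgeR adjusted p = 0.271). Psmd13, a lid subunit, differed by 0.54 ± 0.25 (edgeR adjusted p = 0.280). With ASV, Psmb5 read 64.0, 49.4, 50.1, 37.3 and 73.8 CPM and Psmb6 read 129, 115, 126, 96.1 and 202 CPM. Both overlapped vehicle, at -0.13 ± 0.24 and -0.04 ± 0.18 on the log2 scale. The 95% interval lay inside a 2-fold change either way for 30 of the 31 subunits.

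The difference of 5xFAD effects between settings was tested over all genes and gave 0 of 37 members by edgeR and 0 by DESeq2 in both cases, and 0 at an unadjusted p under 0.05. For Eif2A minus TRAP 0.00622% of genes were called, and for iPKR minus TRAP 0.0373%.

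The members that are not general subunits are given separately. Psma8, which replaces Psma7 in the proteasome of male germ cells, read 23.9, 14.6, 32.6, 20.4 and 19.04 CPM in TRAP, and its level per length was 8.87 ± 2.70 CPM per kb (SD, n = 5). It read 14.02, 42.7, 21.5 and 18.2 CPM in 5xFAD TRAP, 39.3, 22.9, 23.8 and 27.9 CPM in Eif2A and 31.7, 42.4 and 32.6 CPM in 5xFAD Eif2A. In iPKR vehicle it had 0, 3, 23 and 2 counts, or 0, 0.0833, 4.84 and 0.223 CPM. A count of 0 in the first library allows up to 3 counts, 0.836 CPM. In iPKR ASV it read 4.82, 4.53, 0, 5.16 and 3.36 CPM, the 0 allowing up to 0.883 CPM, and in 5xFAD iPKR 2.01, 1.78, 9.24 and 9.20 CPM. These limits cover counting error only. Every library with the iPKR construct lay below every library without it.

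The fitted difference of Psma8 between iPKR vehicle and TRAP was -5.17 ± 0.91 on the log2 scale (edgeR adjusted p = 2.44e-05), and it was -7.61 without iPKR vehicle replicate 3. With libraries near 0 its size depends on the prior count. In 5xFAD mice the difference was -2.08 ± 0.77 (edgeR adjusted p = 0.0272), a call kept in 5 of 8 fits that left out a library and lost without 5xFAD TRAP replicate 2, 5xFAD iPKR replicate 1 or 5xFAD iPKR replicate 2. No 50-base stretch of its longest transcript occurs in transcripts of other annotated genes. Psmc3ip read 0.420 to 10.5 CPM over the 29 libraries and was called in no comparison. It shares 27.1% of its 50-base stretches with Mlx, which overlaps it on the opposite strand. The pseudogene Psmb6-ps2 fell by 1.24 in iPKR vehicle against TRAP on the log2 scale and was at -1.42 in 5xFAD iPKR against 5xFAD TRAP. Psmb11 had 11 counts in all, in 5 libraries, and Psmb6-ps 104 counts in 24 libraries, and both stayed out of the tests.

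Other genes of the pathway were read from lists chosen, like the members, with earlier results of these data known. Outside the 2 comparisons of iPKR with tag-only mice, 1 of the 35 pathway genes was called in any of the pairwise comparisons. That was Nfe2l2, a stress factor that binds the same element as Nfe2l1, at 69.7 ± 17.7 CPM in 5xFAD iPKR and 29.5 ± 7.52 CPM in iPKR ASV (SD, n = 4 and 5), a log2 difference of 1.26 ± 0.24 (edgeR adjusted p = 0.00365). Homeostatic microglia markers took 0.416 ± 0.251% and 0.173 ± 0.0991% of counts in these groups. Nfe2l2 had 265 ± 55.0 CPM in TRAP and 14.5 ± 5.31 CPM in iPKR vehicle. The part of these markers in its call was not tested. The immunoproteasome and its activator PA28 fell most, with 4 of 4 genes lower in both iPKR comparisons and a median of -3.85 in iPKR vehicle against TRAP and -2.39 in 5xFAD. The catalytic immunosubunit Psmb8 had 2.63 ± 0.636 CPM in iPKR vehicle and 45.3 ± 8.14 CPM in TRAP, and the PA28 subunit Psme1 had 21.6 ± 6.27 and 245 ± 36.7 CPM. Their log2 differences were -4.18 ± 0.49 and -3.53 ± 0.29. Psmb9 was at -4.17 and Psme2 at -2.74.

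Of 5 genes for core assembly, 4 fell in each comparison, where 25.4% and 23% of all genes were called lower. Pomp, which guides beta subunits into place, had 191 ± 59.2 CPM in iPKR vehicle and 619 ± 55.8 CPM in TRAP, a log2 difference of -1.76 ± 0.30, and it fell by 1.78 in 5xFAD iPKR against 5xFAD TRAP. Among 7 other caps and partners 3 fell, against the same 25.4% of all genes, led by the small cap subunit Shfm1 at -2.60 ± 0.30. In the 5xFAD comparison 4 fell, against the same 23% of all genes, and Usp14, a deubiquitinase on the cap, rose by 0.91. Usp14 ran from 69.7 to 563 CPM in 5xFAD iPKR (SD 239), overlapping 5xFAD TRAP at 80.1 to 159 CPM. The part of neuron markers and batch in this rise was not tested. Among ubiquitin and delivery genes, Ubb, a ubiquitin gene, fell and Ubqln2, a shuttle factor, rose in iPKR vehicle against TRAP, at -1.17 ± 0.22 and 1.19 ± 0.21 on the log2 scale. In 5xFAD iPKR against 5xFAD TRAP they were at -0.86 ± 0.23 and 0.90 ± 0.23, and both passed. Of 6 genes that control proteasome genes, Nfe2l1 rose from 115 ± 19.96 to 274 ± 20.6 CPM, at 1.24 ± 0.18 on the log2 scale (edgeR adjusted p = 1.14e-06). Nfe2l2 (-4.20) and Mafk (-1.32) fell. In 5xFAD iPKR against 5xFAD TRAP, Nfe2l1 rose by 0.82, and Nfe2l2 (-2.15) and Mafk (-1.89) fell.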

How the data were processed

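Raw counts per gene symbol were deposited for 29 libraries, and they are the values used. Per the submitters' processing notes, the authors' tools were HISAT2 2.2.1, featureCounts 2.0.3 and Trim Galore, with the mm10 genome. The annotation, strandedness and treatment of reads with several matches are not given in the sources used here. Libraries used the SMART-Seq mRNA LP kit on polyA RNA, per the labels' protocols. The deposited RPKM table was not used.

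The low-count filter was filterByExpr per group with a minimum count of 10 and a minimum total of 15, and 16074 of 22327 genes passed. Counts were scaled with TMM factors and fitted in edgeR 4.0.16 (R 4.3.3) with group, batch and labelled sex over all libraries (20 residual degrees of freedom). The quasi-likelihood F-test was two-sided, adjusted by Benjamini-Hochberg over all genes at 0.05. CPM are TMM-scaled and not adjusted for batch or sex. DESeq2 1.42.0, other size factors and filters, fits without covariates, with the replicate number as a block, within batches, on fewer groups and without each library were alternatives. Upper-quartile factors and library totals were added after seeing the data. The script was tested on simulated data. In 5xFAD TRAP against TRAP it called 1.49% of genes changed 1.5-fold, 20.9% at 2-fold and 75.8% at 4-fold. In 5xFAD Eif2A against Eif2A the shares were 0%, 14.9% and 62.1%, and in iPKR vehicle against TRAP 0%, 22.4% and 74.2%. Most changes of 2-fold or less would thus be missed, and a count of 0 called members does not show that members were unchanged. Exon lengths, the union of all annotated exons of a gene, come from GENCODE M21. The 50-base stretches are those of its longest transcript there, compared on both strands with transcripts of all other genes. Positions are mm10, which is GRCm38.

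The members and lists were chosen with earlier results of these data known. Named members are the 3 catalytic subunits, up to 6 called members in each direction with the smallest p per comparison, and Psmc3ip, Psma8 and Psmb11; of other lists, up to 4 called genes. Some genes of the ubiquitin list are not reported here. No reported fit pairs libraries by replicate number, and a fit with that number as a block was an alternative. Between 5xFAD iPKR and 5xFAD TRAP libraries of the same number, all 4 correlations of deviations were over 0.1 (0.166 to 0.286). Only 1 of these 4 was the highest for its library. Replicates 1 and 2 of both groups were of batch 1 and replicates 3 and 4 of batch 2, so pairing cannot be told apart from batch. No pair of libraries in a group was a copy. P-values rest on the spread between libraries, which was estimated per gene over all 7 groups together. The SD of the subunits' mean log2 CPM was 0.0759 to 0.113 in groups without the iPKR construct and 0.313 to 0.415 in the others. A shared spread can thus be too wide for comparisons without iPKR groups and too narrow for those with them. The libraries totalled 1.66 to 31.998 M counts without molecular identifiers.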

Additional observations from a re-analysis of the deposited data

Results flagged for a closer look

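In groups of 4 to 10 libraries, 84 sets of values were looked at for a library far from the rest of its group, and 6 stood out, where chance gives about 1 in 20. Psma8 was at 4.84 CPM in iPKR vehicle replicate 3 and between 0 and 0.223 CPM in the other 3 libraries. Psmb3 was at 223 CPM in TRAP replicate 5, the batch 2 library of that group, and between 182 and 194 CPM in the others. Psmd9 was at 48.8 CPM in 5xFAD TRAP replicate 4 against 65.7 to 68.4 CPM, and at 53.7 CPM in Eif2A replicate 3 against 65.9 to 68.1 CPM. The share of counts in the 31 subunit genes was 0.515% in TRAP replicate 5 against 0.552 to 0.568%, and 0.535% in Eif2A replicate 3 against 0.597 to 0.602%.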

How the results depend on the processing

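Counts of called members stayed within 1.5 times of the reported one in 195 of 215 alternative values. Most comparisons had a reported count of 0, and another 0 was taken as the same. The 195 therefore do not measure how stable the calls were. In 5xFAD TRAP against TRAP the count was 2 with the 4 groups without iPKR. In 5xFAD Eif2A against Eif2A it was 0 with no filter, without batch and with library totals, 3 with only the 2 groups, 4 with the 4 groups without iPKR, and 0 to 1 leaving out a library. In Eif2A against TRAP it was 1 with the 4 groups. In 5xFAD Eif2A against 5xFAD TRAP it was 2 with only the 2 groups and 2 with the 4 groups. In 5xFAD iPKR against iPKR ASV it was 2 in batch 1 alone and 0 to 2 leaving out a library, with 2 lacking iPKR ASV replicate 3. In iPKR ASV against vehicle it was 3 in batch 1 alone and 0 to 1 leaving out a library, with 1 lacking iPKR vehicle replicate 3. In iPKR vehicle against TRAP it was 4 in batch 2 alone and 24 to 27 leaving out a library, and in 5xFAD iPKR against 5xFAD TRAP 10 with only the 2 groups, 10 in batch 1 alone and 13 to 21 leaving out a library. The cause was not tested. The replicate block gave counts of 22 and 16 in the last pair of comparisons and, of the named calls, changed that of Psmd7 (adjusted p = 0.0704).

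Signs turned only in values that were not called. In 5xFAD Eif2A against Eif2A, Psmb7 ran from -0.11 to 0.13 leaving out a library. In 5xFAD iPKR against iPKR ASV, Psmb5 was -0.10 and Psmb7 -0.039 without the 3 libraries of highest neuron marker share, Psmb7 -0.087 in batch 2, and Psmd11 -0.053 with library totals and -0.0089 to 0.18 leaving out a library. Psmd11 in Eif2A against TRAP was 0.036 without batch and -0.081 to 0.015 leaving out a library, and Psmb7 in 5xFAD Eif2A against 5xFAD TRAP 0.10 without batch. In iPKR ASV against vehicle, Psmb5 was 0.22 in batch 1 and -0.37 to 0.085 leaving out a library, and Psmb6 was 0.034 with RLE, 0.011 at a minimum count of 50, 0.0197 without sex, 0.034 with upper-quartile factors, 0.0085 with library totals, 0.025 with only the 2 groups, 0.11 in batch 1, 0.027 with DESeq2 and -0.22 to 0.11 leaving out a library. In 5xFAD iPKR against 5xFAD TRAP, Psmb5 was 0.0198 with RLE, 0.021 with upper-quartile factors, 0.25 with library totals, 0.037 with only the 2 groups, 0.14 in batch 1, 0.014 with DESeq2 and -0.22 to 0.11 leaving out a library, and Psmb7 was 0.031 with library totals and 0.16 in batch 1.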

Other observations

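Some cap and core subunits were high in the 3 libraries with the highest neuron marker share, which were picked out after values were seen. Psmd1, the scaffold of the cap's base, read 346 CPM in iPKR ASV replicate 3 and 272 and 295 CPM in 5xFAD iPKR replicates 1 and 2, and 81.2 to 151 CPM in the other libraries with the construct. Psmd1 overlaps Gm21972 on its own strand and Htr2b on the other, so its counts are uncertain. Psmd14, the cap's deubiquitinase, read 219, 238 and 315 CPM in these libraries and 82.4 to 126 CPM in the others. Of the core, Psmb7 read 87.5, 87.7 and 99.4 CPM against 29.9 to 50.8 CPM, and Psma1 224, 261 and 259 CPM against 84.5 to 190 CPM. The core subunit Psmb2, at 127, 148 and 139.7 CPM, lay within the range of the others (77.8 to 168 CPM). Neuron markers took 2.35, 3.20 and 3.65% of counts in these 3 libraries. All 3 were of batch 1, and 5xFAD iPKR replicates 3 and 4 were of batch 2. The parts of neuron markers and batch in these levels were not tested.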
